A study of Mus musculus with 38 samples.

Results

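Myeloid cells and CD45+ cells from the dorsal skin of nevus mice at postnatal day 56 (P56) were compared across protein-coding genes. Of the 38 libraries of the study, 4 belong to this comparison, chosen by their labels alone: 2 of nevus myeloid cells and 2 of nevus CD45+ cells. The nevus mice are labelled mutant and carry Tyr-NrasQ61K, an oncogenic Nras under the tyrosinase promoter. The tyrosinase promoter is best known for activity in pigment cells, and these mice model a congenital melanocytic nevus. The comparison with healthy skin used 4 libraries of the same cell types from wild type mice at P56, and the tests of nevus effects and interactions also took in 4 wild type libraries of these cell types at P30. All 8 P56 libraries came from dorsal skin and were made from total RNA of bulk cells, in groups of 2 libraries. The sources used here do not describe the gates for the myeloid and CD45+ cells. The study's methods call its bulk replicates biological and describe more of them per group than the 2 libraries analysed here, and the labels do not tie libraries to animals. The libraries measured transcripts as FPKM, fragments scaled by transcript length and by the library total, and level below means FPKM after rescaling the libraries to a common median ratio.

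CD45, encoded by Ptprc, is the surface phosphatase shared by all blood-derived leukocytes, so a CD45+ sort of skin can hold T cells, natural killer cells, mast cells, neutrophils, macrophages and dendritic cells together. Myeloid cells are the part of this compartment that engulfs particles, presents antigen on MHC class II and releases chemokines that draw in other leukocytes. Skin also holds T cells that carry a γδ receptor, some of which line the epidermis and some of which make interleukin 17.

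The myeloid and the CD45+ libraries lie in separate tables, so cell type and table are the same split, and no p-value is given across them. With 2 against 2 libraries an exact two-sided permutation test cannot go below 0.333. A gene was therefore called only where the lowest library of one cell type exceeded the highest library of the other by 4-fold or more on level + 1. The 2 libraries of each cell type lay close together. Over 11890 genes their log2 values correlated at 0.993 for myeloid and 0.995 for CD45+ cells, with a median absolute difference between replicates of 0.118 and 0.0953. Between the cell types the correlation was 0.875 to 0.878.

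The gene for CD45 itself was read in all 4 libraries, and so were transcripts that mark cells other than leukocytes. Ptprc stood at 83.1 and 85.0 in the 2 nevus myeloid libraries and at 190 and 193 in the 2 nevus CD45+ libraries. Of 7 genes shared by leukocytes, which include the lysosomal Laptm5 (1113 and 1143 against 861 and 858) and the small surface protein Cd52 (3030 and 3072 against 2355 and 2243), none was called. Markers of pigment cells summed to 586 to 587 in nevus myeloid and 34.3 to 36.4 in nevus CD45+ libraries. Fibroblast markers summed to 535 to 536 and 65.1 to 65.2, and red cell markers to 223 to 235 and 6.21 to 8.10. Keratinocyte markers lay the other way, at 109 to 114 in myeloid and 784 to 792 in CD45+ libraries. Which cells these transcripts came from was not tested. Xist was above 0 and the Y-linked Ddx3y was listed at 0 in all 8 libraries.

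Genes higher in the myeloid cells numbered 314 of 11890, which is 2.64%, and genes higher in the CD45+ cells numbered 372, which is 3.13%, together 686 genes or 5.77%. The median log2 difference over all genes, myeloid minus CD45+, was −0.02. That balance depends on the rescaling. Without it, the median difference of all genes moved by −0.64 and the counts became 133 and 731, and with all libraries set to equal sums they became 109 and 898. Of the 63 genes named below as called higher in myeloid cells, 40 were also called without rescaling, and of the 46 called higher in CD45+ cells, all 46 were. In bulk libraries, fewer cells of a type and less RNA per cell cannot be told apart.

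**Figure D1:**
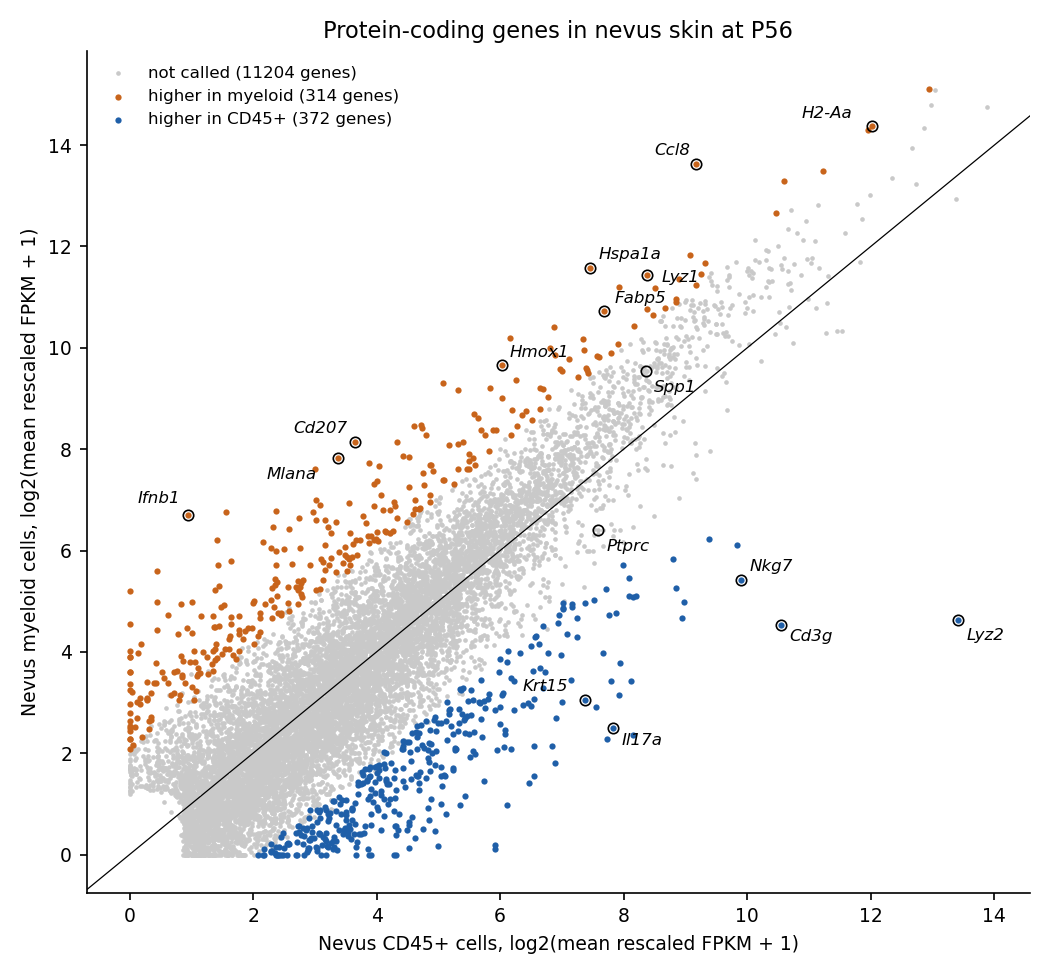
Mean levels of 11890 protein-coding genes in nevus myeloid cells (vertical axis) and nevus CD45+ cells (horizontal axis), both as log2(mean rescaled FPKM + 1), with 2 libraries a cell type and the diagonal marking equal levels. The 314 genes called higher in myeloid cells lie above the diagonal, the 372 called higher in CD45+ cells lie below it, and Lyz2 is the point farthest to the right among the latter.

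The largest difference of all was in Lyz2, the lysozyme of macrophages, which cuts bacterial cell walls, and it lay against the label. Lyz2 stood at 24.5 and 23.4 in the nevus myeloid libraries and at 10978 and 10911 in the nevus CD45+ libraries, a log2 difference of −8.78. In wild type skin the order was the opposite, with 9932 and 9674 in myeloid and 2106 and 2073 in CD45+ libraries. The nevus myeloid libraries were thus the only low group among the 4 at P56. This level goes against what their label would give, and which cells and mice these 2 libraries came from rests on the labels alone, so every nevus myeloid value here is that of the libraries so labelled. Lyz1, its neighbour on chromosome 10 and a gene singled out after its values were seen, kept the order of the cell types in both genotypes. Its levels were 2726 and 2784 against 328 and 336 in nevus skin, and 1704 and 1700 against 246 and 242 in wild type skin. Lyz2 therefore made up 0.891% and 0.832% of the summed lysozyme level in the nevus myeloid libraries, against 85.1% to 97.1% in the other 6.

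Some reads of the pair can be hard to assign, because Lyz1 (GRCm38, chr10:117287797-117292868, minus strand) and Lyz2 (chr10:117277331-117282321, minus strand) are copies of 4 exons each with similar coding sequences. Their coding sequences of 447 bases differed by 22 substitutions, an identity of 95.1% in the GENCODE vM21 transcripts. Of all windows of 43 bases, the length of a read, 20.5% of those in the Lyz2 transcript were also found in Lyz1. The stretch of exon 1 where the copies differ most, coding bases 61 to 120, is shown to let the 2 be told apart, with the 9 differing bases in capitals.
Lyz1: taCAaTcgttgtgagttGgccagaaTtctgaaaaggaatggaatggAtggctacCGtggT
Lyz2: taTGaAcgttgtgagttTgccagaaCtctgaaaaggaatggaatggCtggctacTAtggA
With both copies summed, the lysozyme level was still lower in nevus myeloid cells, at 2750 and 2807 against 11306 and 11247 in nevus CD45+ cells.

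T cell genes were lower in myeloid cells nearly throughout the list. Of 23 T cell markers, 20 were called higher in CD45+ cells and none higher in myeloid cells, with a median log2 difference of −3.73. Cd3g, a chain of the T cell receptor complex, stood at 19.2 and 25.3 in nevus myeloid and 1556 and 1431 in nevus CD45+ libraries, 67.1-fold higher in the latter. Trat1, an adaptor of the same complex, stood at 4.04 and 4.21 against 279 and 288. The signalling chain Cd247 (3.31 and 4.40 against 211 and 213) and the inhibitory adaptor Sit1 (3.21 and 1.79 against 122 and 112) showed the same order, with no overlap between the cell types. The 3 T cell markers that were not called, named after their values were seen, were the costimulatory receptor Cd28 at −1.92, the interleukin 7 receptor Il7r at 1.38 and Cd4 at 0.36. T cell signalling gave 16 of 20 higher in CD45+ cells and none higher in myeloid cells (median −3.04). Its member Lat, the scaffold phosphorylated below the receptor, stood at 9.52 and 9.90 against 282 and 273, and Cd3d at 9.37 and 6.43 against 250 and 232.

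Transcription factors that direct lymphocyte fates followed, with 13 of 19 called higher in CD45+ cells and none higher in myeloid cells. Of the 19, 6 were below 1 in both myeloid libraries. These passed the filter of 1 FPKM in 2 libraries through the CD45+ libraries alone, which nearly fixes their direction, though not a 4-fold gap. Gata3, a factor of T helper 2 and innate lymphoid cells, stood at 3.87 and 4.52 against 67.7 and 65.4. Tox, a factor of T cell development, stood at 0.793 and 0.425 against 29.2 and 26.1, and Bcl11b, needed for T cell commitment, at 0.453 and 0.515 against 16.8 and 20.7. These 3 were below 5 in both myeloid libraries and above 16 in both CD45+ libraries.

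Genes of γδ T cells gave 8 of 11 higher in CD45+ cells, and the interleukin 17 axis was among them. Of the 11, 6 were below 1 in both myeloid libraries and passed the filter through the CD45+ libraries alone. Their direction was thus nearly fixed in advance. Il17a, the cytokine that drives neutrophil recruitment, stood at 5.18 and 4.13 in nevus myeloid and 236 and 216 in nevus CD45+ libraries. Its relative Il17f stood at 3.05 and 3.63 against 67.4 and 64.2. Cd163l1, a scavenger-type receptor of γδ T cells, was at 0.139 and 0.142 against 57.9 and 61.1, and its relative 5830411N06Rik at 0.882 and 0.592 against 33.0 and 34.9. Blk, a kinase of B cells and interleukin 17-making γδ T cells, stood at 0.806 and 1.17 against 30.9 and 32.6, and Il23r, the receptor for interleukin 23, at 0.063 and 0.154 against 7.94 and 6.27. Il17a in wild type skin stood at 0.962 and 0.501 in myeloid and 13.5 and 14.6 in CD45+ cells. Within the CD45+ table it rose by 4.08 on the log2 scale in nevus mice (SE 0.08, adjusted p = 9.59e-08, limma). Over all genes such a nevus effect was called for 20.3% of 12469 in the CD45+ table (11.1% up, 9.28% down) and 24.6% of 11399 in the myeloid table (12.8% up, 11.8% down), and for the latter the split of 1461 up and 1344 down became 940 and 2123 without rescaling.

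Cytotoxic genes were called higher in CD45+ cells for 10 of 16 members, with a median of −2.82. Prf1, the pore-forming perforin, stood at 1.65 and 2.17 against 90.1 and 94.5. Nkg7, a granule membrane protein, stood at 46.4 and 37.6 against 944 and 964, the NK receptor Klrb1c at 0.252 and 0.540 against 23.0 and 20.0, and Il2rb, the shared chain of the interleukin 2 and 15 receptors, at 14.5 and 15.0 against 197 and 207. The granzyme Gzmc did not follow them, at 226 and 227 in myeloid against 205 and 200 in CD45+ libraries. Wild type levels of Gzmc were 0.394 and 0.218 in myeloid cells and 157 and 162 in CD45+ cells. The interaction, which takes the nevus effect in myeloid cells minus that in CD45+ cells, was 7.07 for it (SE 0.10, adjusted p = 8.49e-11).

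Among the remaining lymphoid genes, 2 of 7 regulatory T cell markers were called higher in CD45+ cells, the factor Ikzf2 (2.62 and 2.33 against 17.7 and 15.1) and the inhibitory receptor Ctla4 (15.4 and 15.0 against 68.7 and 69.3). Of 7 B cell markers 2 were called higher in CD45+ cells, among them Cd79a, a chain of the B cell receptor, at 1.46 and 1.83 against 16.2 and 17.6. Cytokine receptors gave 6 of 30 higher in CD45+ cells, with Il27ra at 1.99 and 1.83 against 33.5 and 33.8 and Il12rb1 at 0.340 and 0.643 against 10.3 and 11.1.

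Other genes among the largest gaps on the CD45+ side were in none of the gene lists. Avil, the actin-severing protein advillin, stood at 0.113 and 0.0386 in myeloid and 57.9 and 60.3 in CD45+ libraries. Cd96, an adhesion receptor of T and NK cells, stood at 1.23 and 2.08 against 86.6 and 87.7, and 5430421N21Rik at 0.453 and 1.51 against 64.4 and 72.4. The latter lies at chr15:101485130-101491512, on the chromosome that also holds the keratin genes Krt5 (101707070-101712898) and Krt1 (101845426-101850794).

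**Figure D2:**
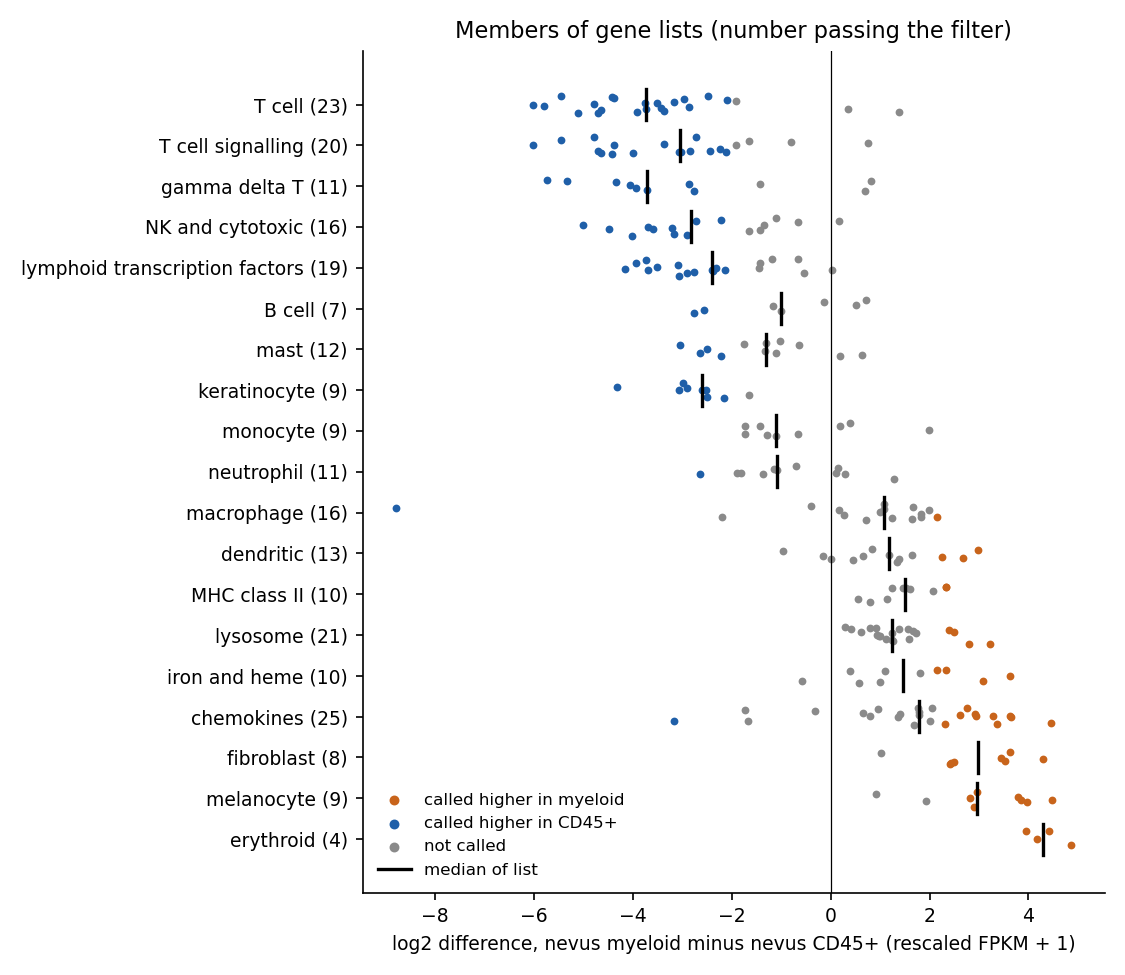
log2 difference in level, nevus myeloid minus nevus CD45+, for each member of 19 gene lists that passed the filter (dots, coloured by call; number in brackets; vertical offsets are only for display) with the list's median (bar). Medians of the lymphoid, mast cell, keratinocyte, monocyte and neutrophil lists lie left of 0 and those of the other lists lie right of it.

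Myeloid markers separated the cell types far less than lymphoid ones. Of 16 macrophage markers only Ms4a7 was called higher in myeloid cells, at 706 and 669 against 154 and 152, and only Lyz2 was called higher in CD45+ cells. Ms4a7 was not called without rescaling, where the list gave 0 and 2 calls. The other 14 were not called and the median of the list was 1.08, which was 0.36 without rescaling. The integrin chain Itgam, which marks most myeloid cells, was at 21.4 and 20.7 in nevus myeloid and 29.9 and 25.9 in nevus CD45+ libraries. The wild type levels of Itgam were 36.1 and 36.7 in myeloid and 10.3 and 10.4 in CD45+ cells, and its interaction was −2.09 (SE 0.19, adjusted p = 8.43e-06). None of 9 monocyte markers was called, and their median lay on the CD45+ side at −1.11. Without rescaling 2 were called higher in CD45+ cells (median −1.83), and with equal sums 4 were (median −1.99). Ly6c2, a surface protein of inflammatory monocytes, stood at 230 and 238 against 561 and 585, and Plac8 at 186 and 198 against 300 and 301.

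Mast cell genes lay on the CD45+ side where they were called. Of 12 mast cell markers 4 were higher in CD45+ cells: the tryptase Tpsb2 (23.3 and 27.6 against 218 and 213), the chymase Cma1 (43.6 and 41.7 against 267 and 277), the carboxypeptidase Cpa3 (31.3 and 31.9 against 181 and 183) and the stem cell factor receptor Kit (0.970 and 0.888 against 8.05 and 7.86). Of 11 neutrophil markers 1 was called, the granule protein Ngp, at 0.441 and 0 in myeloid and 7.63 and 5.52 in CD45+ libraries. Of the 11, 4 had a positive difference, and the summed level of the list was 1532 to 1607 in myeloid and 1212 to 1221 in CD45+ libraries.

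Of 13 dendritic cell genes, 3 were called higher in myeloid cells and none higher in CD45+ cells. The 3 became 1 without rescaling and 0 with equal sums. Ccr7, the receptor that guides dendritic cells to lymph nodes, stood at 871 and 889 against 133 and 140. Clec9a and Xcr1, both of conventional dendritic cells that cross-present antigen, stood at 17.5 and 13 against 1.23 and 0.868, and at 14 and 14.9 against 2.28 and 2.15. Ccr7 and Xcr1 were not called without rescaling. Of 5 Langerhans cell markers 1 was called and 3 had a positive difference, with a median of 0.75 and a lowest value of −1.44. The called marker Cd207, the langerin of Langerhans cells, stood at 276 and 291 in nevus myeloid and 11.5 and 11.8 in nevus CD45+ libraries. In wild type skin its order was the opposite, with 40.4 and 44.2 in myeloid and 690 and 680 in CD45+ libraries. Within the tables Cd207 rose by 2.81 in nevus myeloid cells (SE 0.10, adjusted p = 5.45e-06) and fell by 5.63 in nevus CD45+ cells (SE 0.04, adjusted p = 6.34e-09).

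Antigen presentation on MHC class II was higher in myeloid cells for 2 of 10 genes, and all 10 members had a positive difference (median 1.5, and 0.80 without rescaling). H2-Aa stood at 20522 and 21837 against 4193 and 4150, and H2-Eb1 at 19744 and 20593 against 4022 and 3938. Neither was called without rescaling. Pattern recognition receptors gave 3 of 21, the C-type lectins Clec4n (344 and 324 against 60.6 and 59.8) and Clec4d (439 and 444 against 98.5 and 100) and the endotoxin receptor partner Ly96 (103 and 107 against 24.9 and 21.5). Complement genes gave 1 of 12, the anaphylatoxin receptor C3ar1 at 111 and 113 against 25.1 and 24.4. None of these 4 was called without rescaling, and the medians of the 2 lists were then 0.36 and −0.17. Fc receptors and proximal myeloid signalling gave no call among 8 and 19 genes. Their shared adaptor Fcer1g stood at 3381 and 3612 against 2191 and 2059, the low-affinity Fc receptor Fcgr3 at 743 and 739 against 260 and 245, and the adaptor Tyrobp at 4748 and 5042 against 1811 and 1754.

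Genes that break down and store engulfed material were higher in myeloid cells where they were called. Lysosomal genes gave 4 of 21 and none on the CD45+ side. The collagen-cleaving cathepsin Ctsk stood at 97.5 and 90.0 against 9.30 and 9.09, the proton pump subunit Atp6v0d2 at 50.8 and 51.8 against 6.07 and 7.13, Ctsl at 576 and 585 against 104 and 99.3, and the tetraspanin Cd63 at 1713 and 1756 against 338 and 324. Lipid handling gave 2 of 15, the fatty acid carrier Fabp5 (1677 and 1703 against 198 and 209) and Gpnmb, a glycoprotein of lipid-laden macrophages that pigment cells also make (283 and 276 against 42.2 and 40.6). Without rescaling, Ctsk and Fabp5 remained called and the other 4 did not. Timd4, a receptor for dying cells, was the only call among 12 scavenger and efferocytosis genes, at 28.7 and 29.8 against 1.69 and 2.12.

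Iron and heme genes gave 4 of 10 on the myeloid side. Hmox1, which splits heme, stood at 780 and 830 against 65.3 and 62.7, and Blvrb, which reduces the product, at 422 and 440 against 81.9 and 87.8. The heme-binding Hebp1 stood at 15.4 and 12.8 against 0.706 and 0.838. Fth1, the heavy chain of the iron store ferritin, was the gene with the highest level of this list, at 34613 and 35980 in nevus myeloid and 8191 and 7600 in nevus CD45+ cells. Fth1 was not called in wild type skin, at 6834 and 7039 in myeloid and 8281 and 8393 in CD45+ cells, and its interaction was 2.44 (SE 0.14, adjusted p = 3.42e-07). Without rescaling, Fth1 and Blvrb were not called. The red cell genes among the largest gaps moved beside these. The globin Hbb-bs stood at 75.2 and 69.9 against 0.801 and 2.56, Hba-a2 at 104 and 114 against 4.65 and 3.65, Hba-a1 at 36.0 and 25.7 against 2.01 and 0, and Hbb-bt at 20.2 and 13.4 against 0.278 and 0. The globin genes are near-identical pairs, so their split within a pair is uncertain, and the part of red cells in the iron and heme values was not tested.

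Chemokines formed the largest group of secreted signals on the myeloid side, with 10 of 25 called there and 1, Xcl1, on the CD45+ side. Ccl8, a chemokine that attracts monocytes and T cells, stood at 12436 and 12958 in nevus myeloid and 553 and 597 in nevus CD45+ libraries, 22.1-fold higher in myeloid cells. Cxcl3, a ligand of the neutrophil receptor CXCR2, stood at 204 and 199 against 14.7 and 16. Cxcl9 and Cxcl10, ligands of the T cell receptor CXCR3 that interferons induce, stood at 92.1 and 100 against 9.36 and 4.78, and at 581 and 598 against 58.5 and 53.9. Without rescaling the list gave 7 and 3 calls. Among 17 chemokine receptors the calls were divided, with Ccr7 and Xcr1 higher in myeloid cells and Ccr6 (4.18 and 4.48 against 46.9 and 46.4), Ccr8 (25.5 and 26.8 against 230 and 235) and Cxcr6 (33.2 and 32.5 against 272 and 294) higher in CD45+ cells.

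Cytokines were called in both directions. Of 28 genes, 3 were higher in myeloid cells, the interleukin 1 family members Il1b, Il1rn and Il18, and 6 were higher in CD45+ cells. The latter 6 were Il17a, Il17f, Il2, Ifng, Lta and Ltb. Without rescaling the counts were 1 and 8. Ltb, a lymphotoxin chain that organises lymphoid tissue, stood at 13 and 12.7 against 229 and 259, and Lta at 2.07 and 1.84 against 25.1 and 22.7.

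Interferon β itself gave the largest gap on the myeloid side. Ifnb1 stood at 105 and 102 in nevus myeloid and 0.698 and 1.15 in nevus CD45+ libraries, and between 0.262 and 0.537 in the 4 wild type libraries. Only the 2 nevus myeloid libraries were above 2, and the interaction was 5.90 (SE 0.33, adjusted p = 2.95e-07). Interferon response genes gave 5 of 20 on the myeloid side with a median of 0.46, which was −0.24 without rescaling. The list was not higher in myeloid cells of nevus skin alone, since 7 of 19 were called that way in wild type skin. Its interaction was called upward for 4 genes and downward for 10. Rsad2, the antiviral viperin, stood at 121 and 123 against 11.2 and 10.2, and Ifit1 at 63.9 and 67.3 against 4.96 and 6.54. Rsad2 in wild type skin stood at 6.7 and 6.8 in myeloid and 2.88 and 3.14 in CD45+ cells. All 5, with Cxcl9, Cxcl10 and Isg15, were still called without rescaling.

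Secreted growth and matrix factors gave 8 of 30 on the myeloid side and 1, Fn1, on the CD45+ side, which became 5 and 2 without rescaling and 3 and 3 with equal sums. Timp2, an inhibitor of matrix metalloproteinases, stood at 282 and 282 against 21.1 and 17.3. The growth factor Igf1 stood at 304 and 312 against 26.8 and 27.2, the activin subunit Inhba at 50.8 and 53.5 against 5.18 and 5.21, and the macrophage elastase Mmp12 at 1148 and 1163 against 162 and 163. Pgf, a ligand of the VEGF receptor FLT1, stood at 107 in both myeloid and 1.97 and 1.96 in both CD45+ libraries, while in wild type skin it was higher in CD45+ cells (17.1 and 17.6 against 10.1 in both myeloid libraries). The gelatinase Mmp9 lay on the CD45+ side without being called, at 2.53 and 3.02 against 12.5 and 13.5, and was called there without rescaling. In wild type skin Mmp9 stood at 31.8 and 28.5 in myeloid and 70.1 and 72.1 in CD45+ libraries. Its nevus effect was −2.90 in the myeloid and −2.23 in the CD45+ table.

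Spp1, which encodes osteopontin, a secreted ligand of CD44 and of several integrins, was read at high levels in the nevus libraries of both cell types. It stood at 748 in both nevus myeloid libraries and at 318 and 336 in the nevus CD45+ libraries, a log2 difference of 1.19 that was not called. In wild type skin it stood at 22.3 and 20.2 in myeloid and 15.6 and 14.9 in CD45+ cells. Within the tables Spp1 rose by 5.16 in nevus myeloid cells (SE 0.10, adjusted p = 8.55e-07) and by 4.50 in nevus CD45+ cells (SE 0.07, adjusted p = 7.42e-08). The interaction was 0.76 (SE 0.13, adjusted p = 7.73e-04), under the 2-fold limit. The study reports a rise of Spp1 in nevus melanocytes. Pigment cell markers summed to 586 to 587 in nevus and 8.14 to 9.52 in wild type myeloid libraries. In CD45+ libraries they summed to 34.3 to 36.4 in nevus and 5.76 to 6.37 in wild type skin. The part of pigment cells in the Spp1 levels was not tested. None of 8 osteopontin receptor genes was called between the nevus cell types. Cd44 stood at 212 and 210 against 148 and 140, and the integrin chain Itgb1 at 65.2 and 66.5 against 58.7 and 53.8. In wild type skin Cd44 had the opposite order, at 178 and 187 in myeloid and 298 and 312 in CD45+ libraries. Its nevus effect was 0.30 in the myeloid and −0.93 in the CD45+ table. The interaction of Cd44 was 1.30 (SE 0.08, adjusted p = 7.12e-07, limma), a call that was lost without rescaling.

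Myeloid transcription factors gave 3 of 15 on the myeloid side, Cebpb (424 and 404 against 52.8 and 40.8), Cebpa (43.9 and 39.8 against 8.60 and 6.95) and Tfec (7.12 and 7.34 against 0.904 and 0.589). Of these, only Cebpb was called without rescaling. None of 25 cell cycle genes was called. The centromere histone Cenpa stood at 275 and 262 against 102 and 99.6, Pcna at 171 and 187 against 124 and 122, and the proliferation marker Mki67 at 1.03 and 1.29 against 2.93 and 2.66.

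Pigment cell genes were higher in the nevus myeloid than in the nevus CD45+ libraries for 7 of 9 markers, with a median of 2.96. Mlana, a melanosome protein, stood at 226 in both myeloid and 10.6 and 8.02 in the CD45+ libraries. The pigment enzymes Dct (212 and 211 against 13.7 and 13.8), Tyrp1 (66.8 and 64.4 against 3.45 and 4.32) and Tyr (20.6 and 20.7 against 0.381 and 0.355) had the same order. In the wild type myeloid libraries Mlana was listed at 0 and Tyr was at 0.0656 and 0. Fibroblast genes gave 7 of 8 on the myeloid side, among them the collagens Col1a1 (62.6 in both against 4.07 and 4.29), Col1a2 (63.3 and 64.7 against 5.19 and 4.14) and Col3a1 (98.5 and 94.2 against 7.99 and 7.95) and the matrix proteoglycan Lum (51.9 and 51.7 against 2.05 and 1.37). Keratinocyte genes gave 8 of 9 on the CD45+ side, with Krt15 at 7.18 and 7.49 against 167 and 162, Krt14 at 30.0 and 36.6 against 265 and 275, Krt5 at 10.7 and 12 against 92.6 and 90.5, and Krt1 at 0.063 and 0.154 against 8.76 and 7.74. Endothelial, mural, adipocyte, Schwann and skeletal muscle markers gave no call among the 4, 2, 1, 3 and 3 that passed the filter, and Pecam1 was at 4.34 and 4.80 against 6.79 and 5.24. The others named from these lists, Egfl7, Acta2, Tagln, Adipoq, Acta1 and Tnnt3, were all under 12 in all 4 nevus libraries. Taking out these markers and those of red cells leaves, by subtraction, counts of 296 and 364. The part of these cells in other differences was not tested.

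Lists that can reflect handling or library making also held calls, and the part of either was not tested. Of 16 dissociation response genes, the heat shock genes Hspa1a (3083 and 3059 against 165 and 182) and Hspa1b (194 and 193 against 6.6 and 7.46) were higher in myeloid cells and the early gene Fosb (29.9 and 27.3 against 152 and 134) in CD45+ cells. The heat shock pair are near-identical copies, and both were also called in wild type skin. Ribosomal protein genes gave 8 of 77 on the myeloid side with a median of 1.45, and 0 without rescaling. Rpl39 stood at 583 and 595 against 104 and 93.7 and Rps12 at 756 and 729 against 144 and 111, Rps28 at 2820 and 2769 against 638 and 583 and Rpl39l at 7.32 and 8.44 against 0.618 and 0.921. Of 13 mitochondrial genes, mt-Nd3 was called higher in myeloid cells (488 and 539 against 92.6 and 36.5) and mt-Nd4l higher in CD45+ cells (16.7 and 20.1). The latter was listed at 0 in all 4 P56 myeloid libraries. Gm20431, at 22.8 and 21.9 in nevus myeloid cells, was listed at 0 in all 4 P56 CD45+ libraries. Both differences were thus seen in both genotypes, and cell type and table cannot be told apart for them.

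Among the largest gaps on the myeloid side, 3 more genes encode secreted or membrane proteins. Hamp, the hormone hepcidin that limits iron release, stood at 35.1 and 36.6 in nevus myeloid cells and was listed at 0 in both nevus CD45+ libraries. Cgref1, a calcium-binding protein, stood at 47.8 and 47.3 against 0.309 and 0.400, and Nppc, the C-type natriuretic peptide, at 29.6 and 32.0 against 0.198 and 0.521.

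**Figure D3:**
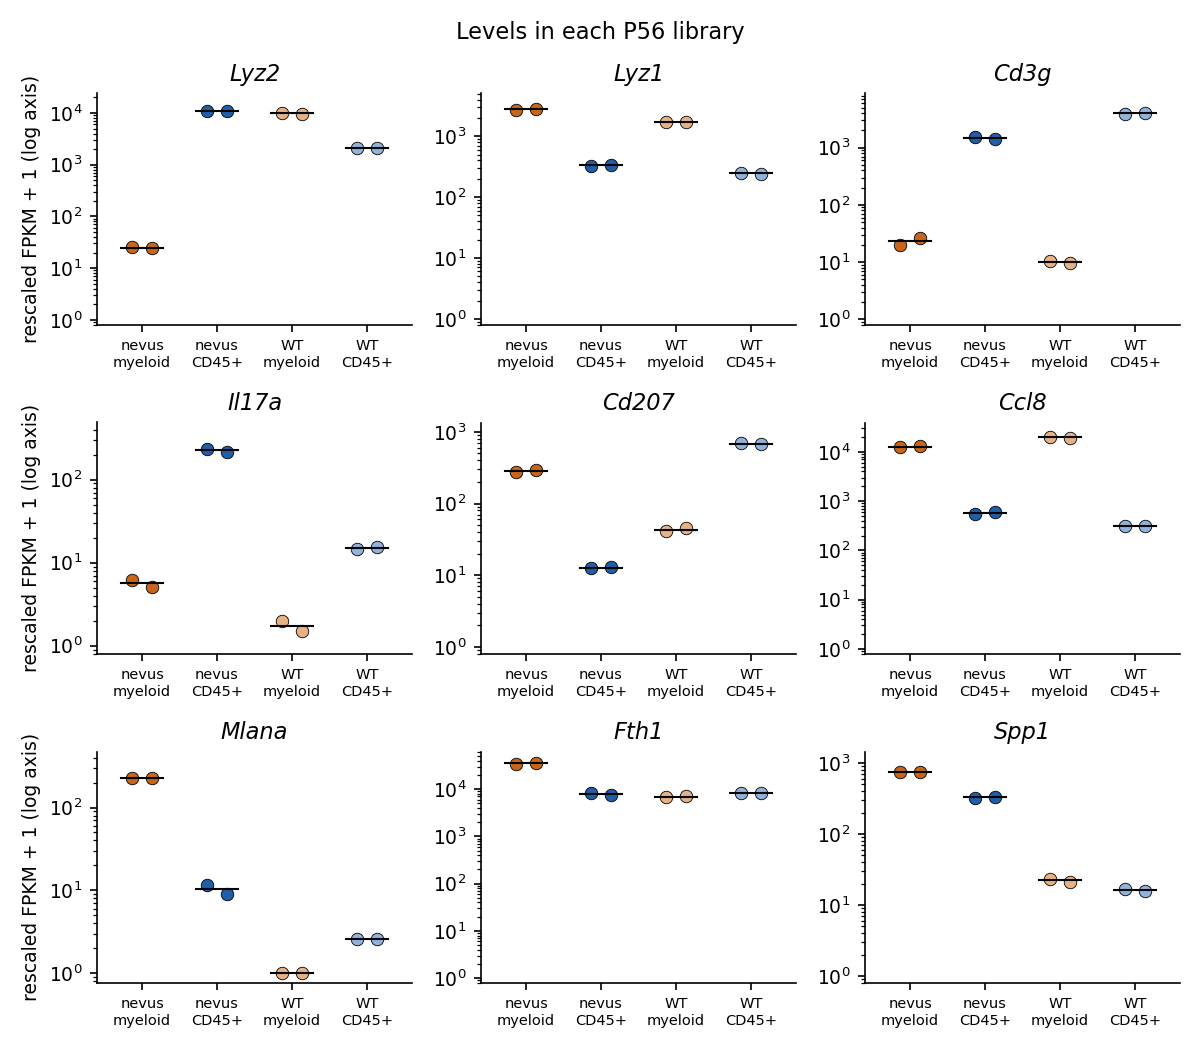
Levels of 9 genes in each P56 library (dots, 2 a group) with the group mean (bar), as rescaled FPKM + 1 on a log axis, for nevus myeloid, nevus CD45+, wild type (WT) myeloid and wild type CD45+ cells; nevus and wild type libraries were rescaled separately. Lyz2 is low only in nevus myeloid cells, Cd207 reverses its order between the genotypes, and Spp1 is higher in both nevus cell types than in either wild type one.

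Wild type skin at P56 shows which of the called differences were also present without a nevus. By the same rule, 615 of 11868 genes (5.18%) were higher in wild type myeloid cells and 794 (6.69%) higher in wild type CD45+ cells, together 11.9%, and with equal sums 414 and 1057. Of the 314 genes higher in nevus myeloid cells, 106 were called the same way in wild type skin, 33.8% of the nevus list and 17.2% of the wild type list, and 10 were called the opposite way. Of the 372 genes higher in nevus CD45+ cells, 268 were called the same way, 72.0% of the nevus list and 33.8% of the wild type list, and 1, Lyz2, the opposite way. Macrophage markers gave 11 of 16 higher in wild type myeloid cells against 1 in nevus skin, complement 9 of 12 against 1, Fc receptors 5 of 7 against 0 of 8, and myeloid signalling 8 of 19 against 0. T cell markers were 18 of 23 higher in wild type CD45+ cells against 20 in nevus skin. Keratinocyte markers were 9 of 9 higher in wild type CD45+ cells, and none of 3 pigment cell markers that passed the filter was called there.

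**Figure D4:**
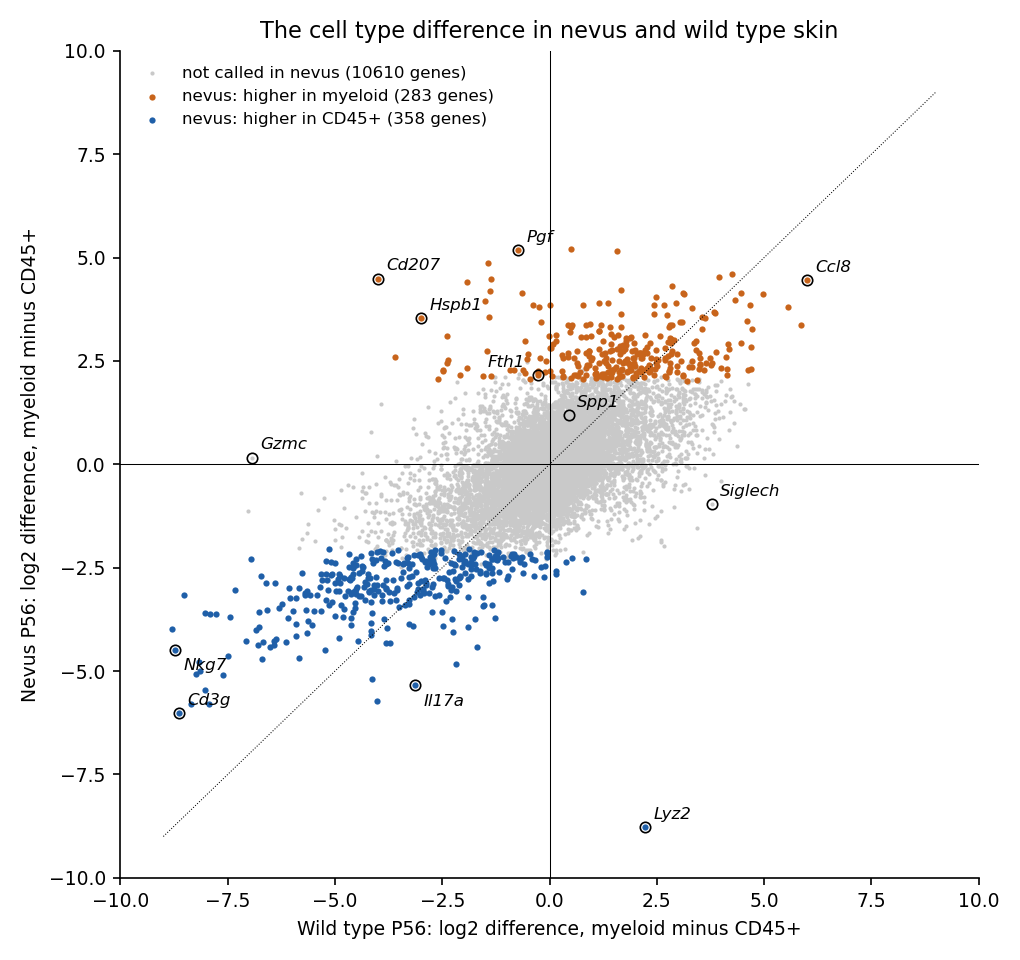
log2 difference in level, myeloid minus CD45+, in nevus skin (vertical axis) and wild type skin (horizontal axis) at P56 for genes kept in both comparisons, 2 libraries a group, with calls of the nevus comparison in colour and a dotted line where the differences are equal. Most genes called higher in nevus CD45+ cells lie left of 0, and Lyz2 lies apart at the lower right.

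Whether a nevus effect differed between the cell types was tested as an interaction, in which a constant factor of either table cancels. It was called at an adjusted p under 0.05 and 2-fold for 2046 of 12815 genes upward (16.0%) and 1909 downward (14.9%), that is, for 30.9% of all genes. Without rescaling the split was 1288 and 3107. Macrophage markers were called downward in 12 of 16 and upward in none. For those 12 the nevus effect was lower in myeloid than in CD45+ cells, which need not be a fall in myeloid cells. Within the tables Lyz2 changed by −8.51 in myeloid and 2.54 in CD45+ cells, and Itgam by −0.66 and 1.51. Ms4a7 rose by 0.97 in myeloid cells and by more in CD45+ cells. The monocyte marker Ly6c2 changed by 0.09 and 3.90, and the Fc receptor Fcgr3 by −0.40 and 1.95. Fc receptors were downward in 7 of 8, complement in 9 of 12, myeloid signalling in 11 of 19 and monocyte markers in 6 of 9, with none upward in these 4 lists. T cell markers were upward in 15 of 23 and downward in 4, and cytotoxic genes upward in 10 of 16 and downward in none. Pigment cell markers were upward in 8 of 9 and the 5 Langerhans cell markers upward in all 5.

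The largest interactions downward were in Lyz2 (−10.99, SE 0.08, adjusted p = 4.00e-13), in the B cell transcription factor Pou2f2 (−4.94, SE 0.25, adjusted p = 1.83e-07) and in Siglech (−4.70, SE 0.27, adjusted p = 3.43e-07), and in Coro2b, Gbp7 and Tnni3. Siglech, an endocytic receptor of plasmacytoid dendritic cells, stood at 30.8 and 28.8 in wild type and 4.58 and 3.11 in nevus myeloid cells, and at 1.1 and 1.38 in wild type and 7.88 and 8.72 in nevus CD45+ cells. Gbp7, an interferon-induced GTPase, stood at 38.4 and 39.2 in wild type and 3.39 and 3.01 in nevus myeloid cells. Coro2b, an actin regulator, was at 13.9 and 15.7 against 0.995 and 0.952, and the troponin Tnni3 at 12.4 and 15.4 against 0.579 and 0. The largest upward were in Cd207 (8.50, SE 0.12, adjusted p = 6.94e-11), Gzmc, the small heat shock protein Hspb1, the globins Hba-a2 and Hbb-bs, and Mgll. Hspb1 stood at 17.3 and 20.1 in wild type and 1450 and 1268 in nevus myeloid cells, while CD45+ cells had 178 and 138 and then 106 and 126. Mgll, a lipase that releases fatty acids from monoglycerides, stood at 1.83 and 2.61 in wild type and 59.5 and 64.8 in nevus myeloid cells, and at 40.3 and 36.1 and then 10.4 and 8.47 in CD45+ cells.

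Promoter sequence was searched for 2 motifs, GAGGAAG, bound by the myeloid and B cell factor PU.1, and CTTTGAT, bound by the TCF proteins of T cells, on both strands of 300 bases around RefSeq gene starts (GRCm38.p6). The PU.1 motif lay in 17.7% of 282 promoters of genes higher in nevus myeloid cells, 16.8% of 357 promoters of genes higher in nevus CD45+ cells, 14.2% of promoters of all genes kept and 13.6% of all 32851 promoters. The TCF motif lay in 2.48%, 2.52%, 2.61% and 3.73% of the same sets. Promoters were found for 231 of the 314 and 270 of the 372 genes. The motifs thus appeared at nearly the same share in the promoters of both directions, and this says nothing of the factors themselves.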

How the data were processed

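The authors made full-length cDNA from total RNA, sequenced paired reads, aligned them with STAR to GRCm38 (version 2.4.2 in the submitters' processing notes) and estimated FPKM per gene with RSEM; the deposited FPKM tables, 1 per cell type, are not scaled to each other. The FPKM of the 8 P56 libraries summed to 700770 to 903005. A search for steps of whole reads put at most 2.99% of low values in a bin, so read depth is unknown and no counting intervals are given.

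Tables were joined on Ensembl identifier, and 23 and 27 symbols turned into dates were restored. Of 15426 protein-coding genes in both, 11890 with 1 FPKM or more in at least 2 of the 4 nevus libraries were kept (11868 of wild type) and divided by factors of 0.777 to 1.33, medians of ratios to the geometric mean. A pseudocount of 1 was added; differences on this scale understate those of low genes. A gene low in 1 cell type could pass the filter through the other alone, which nearly fixes its direction but not a 4-fold gap. A call needed 4-fold between the nearest libraries. limma 3.58.1 (R 4.3.3) with a variance trend, two-sided and Benjamini-Hochberg adjusted over all genes tested, was fitted to all 12 libraries of both tables, P30 wild type included, for the interaction and to each table for its nevus effect, called at 2-fold. The labels do not tie replicates to animals, so p-values reflect only variation among libraries, which may be in part technical. The study's own count test could not be run on FPKM.

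Named genes were the 12 called genes with the largest gap each way at a mean of 10 or more, up to 4 called members of each of 44 lists (the 2 highest where none was called), the 6 largest interactions each way, and Ptprc, Itgam, Spp1, Cd44, Mmp9, Mki67, Xist and Ddx3y. Values of 4 genes that these rules name are not reported here. Members, lists and rules were chosen with earlier results of these data known. Of 530 genes in the fixed lists, 518 were in both tables and 496 passed the filter. Where a symbol had 2 identifiers (Itgam), the one with the higher level was used. Positions are from GENCODE vM21 (GRCm38). The alternatives were other scalings, pseudocounts, filters and folds, a replicate block and leaving out each library.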

Additional observations from a re-analysis of the deposited data

Results flagged for a closer look

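The nevus effect differed between the cell types by a test of the difference itself, the limma interaction, for 3955 of 12815 genes, and for 85 of the 140 named genes in which it could be tested. Its values are log2 differences, the nevus effect in myeloid cells minus that in CD45+ cells. Among genes with the largest gaps on the myeloid side it was 5.90 for Ifnb1, 5.94 for Pgf, 4.75 for Hamp, 3.67 for Cgref1, 8.50 for Cd207, 4.98 for Nppc, 6.30 for Hbb-bs, 5.82 for Mlana and 6.35 for Hba-a2, while Ccl8, at −1.50, went the other way. Among those with the largest gaps on the CD45+ side it was −10.99 for Lyz2, −1.79 for Cd163l1, −2.23 for Il17a and −1.11 for 5430421N21Rik. In the same set it was 2.62 for Cd3g, 2.55 for Trat1, 2.05 for Avil, 2.54 for Cd247, 3.08 for Prf1, 3.12 for Cd96, 2.45 for Sit1 and 2.0 for Lat. The largest differences elsewhere were −4.94 for Pou2f2, −4.70 for Siglech, −4.63 for Coro2b, −4.45 for Gbp7 and −4.42 for Tnni3 downward, and 7.07 for Gzmc, 6.56 for Hspb1 and 6.21 for Mgll upward. Of the genes named whatever their values it was 1.30 for Cd44, −2.09 for Itgam and −1.57 for Mki67.

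Outside the genes that both tables list, 6504 protein-coding genes were in the CD45+ table only and entered no comparison. With a mean of 5 FPKM or more in nevus CD45+ cells and 4-fold or more above both wild type P56 libraries, 2 of them stood out. The apolipoprotein L gene Apol7b had a mean of 8.35 FPKM in the nevus libraries against 0.64 and 0.73 in the wild type ones. The acid-sensing channel gene Asic3 had a mean of 12.1 FPKM against 0.63 and 0.77. They were chosen after their values were seen and were not tested.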

How the results depend on the processing

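All 686 calls of the nevus comparison kept their direction wherever they were called again. The 686 became 864 without rescaling (505 of the main calls kept), 1007 at equal sums (481 kept), and 1337 with a pseudocount of 0.1, 288 with one of 5, 3006 at 2-fold and 188 at 8-fold. For wild type the 1409 calls became 2240, 700, 3869 and 543 under the same 4 settings. Leaving out each library gave 541 to 748 nevus and 1078 to 1401 wild type calls; the filter then keeps fewer genes. With ratios of same-numbered libraries, in place of a replicate block, the nevus comparison gave 728 calls and the wild type one 1450. Deviations of same-numbered libraries were hardly correlated between groups (−0.089 to 0.0812). That cannot settle whether replicate numbers pair the samples, which the labels do not say. With the replicate block limma called 3957 interactions, 2806 nevus effects in the myeloid and 2534 in the CD45+ table, against 3955, 2805 and 2535. Chosen after seeing the data, rescaling on genes within 2-fold gave 202 and 530 calls, and summing Lyz1 and Lyz2 gave 313 and 372, with the summed lysozyme called higher in CD45+ cells. The share of calls that were higher in myeloid cells was 45.8% and became 15.4% without rescaling. Leaving out each library gave 3871 to 4033 interactions. The interaction of Cd44 lost its call without rescaling (0.83), that of Mmp9 gained one (−1.02), and that of 5430421N21Rik lost it without nevus myeloid replicate 1 (−0.70) or wild type myeloid replicate 1 (−0.96). None of 1158 alternative values of the 109 called named genes changed sign. The call rule nearly fixes this, and the kept direction of the 686 calls, in advance. It asks for a gap of 4-fold, while equal sums moved the log2 differences by a median of −0.79. Unknown read depth limits what can be said of low genes.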
